A study of Mus musculus with 2 samples.

Results

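Mir1a-1, Mir1b, Mir133a-1, Mir133a-2, Mir133b and Mir206 are the miRNA genes of the families miR-1, miR-133 and miR-206, and they were chosen by gene name as the 6 rows whose Ensembl identifiers carry these symbols, of 1973 miRNA gene rows in all. They were read in 1 group of 2 libraries, each made from the whole heart of 1 newborn mouse of strain B6NCrl at an age of 0 days, with no treatment or altered allele named in the labels. Replicate 1 was pup 2 and replicate 2 was pup 3, both of pregnant female 1, so the spread between them covers 2 littermates and their library preparations and no other litter. Sex was not collected, and the labels give total RNA with short inserts as the material. A member's value is its count of reads on the sense strand, or CPM, which is that count scaled to 1000000 sense counts on all miRNA genes of the library. Each read is a whole short RNA, so counts were not divided by length.

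A miRNA is cut from a hairpin precursor into a short strand, whose seed, bases 2 to 8, pairs with messenger RNAs and represses them. miR-1 and miR-133 are the classical miRNAs of heart and skeletal muscle: miR-1 is known to repress Hand2 and Hdac4, and miR-133 to repress Srf and the cell cycle gene Ccnd2. miR-206 is a relative of miR-1 with the same seed that is known from skeletal muscle, where it supports the repair of the nerve-muscle synapse. The genes lie in pairs of a miR-1 or miR-206 gene and a miR-133 gene that are transcribed together, so that a pair of families can come from 1 transcript.

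The sequences of the members that could be printed from RefSeq (build GRCm38.p6) are shown because the counts below depend on which reads can be told apart between family members. In the mature strands, the capitals mark the seed.
mmu-miR-206-3p: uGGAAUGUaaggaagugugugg
mmu-miR-206-5p: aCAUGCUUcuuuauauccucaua
mmu-miR-1a-1-5p: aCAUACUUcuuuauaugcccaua
mmu-miR-133b-3p: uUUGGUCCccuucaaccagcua
mmu-miR-133b-5p: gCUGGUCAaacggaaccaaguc
In the 2 whole hairpins, both on the plus strand of chromosome 1, the capitals mark both mature strands.
Mir206 hairpin: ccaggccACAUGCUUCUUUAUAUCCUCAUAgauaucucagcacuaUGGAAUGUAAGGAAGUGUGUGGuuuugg
Mir133b hairpin: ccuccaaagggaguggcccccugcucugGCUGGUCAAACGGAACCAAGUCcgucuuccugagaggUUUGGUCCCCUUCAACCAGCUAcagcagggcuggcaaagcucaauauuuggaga

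The strands miR-206-5p and miR-1a-1-5p are each 23 nt long and have the same base at 20 positions. Counted from 1 at the 5′ end, with miR-206-5p first, they differ at G5A, C17G and U19C, the first of which lies in the seed. The whole miR-206-3p strand occurred in 1 of 2202 annotated miRNA precursors, its own, and the same held for miR-206-5p, miR-1a-1-5p and miR-133b-5p. The whole of miR-133b-3p also occurred in its own precursor alone, but its first 18 nt occurred in 3 precursors.

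Positions are on GRCm38, the assembly also called mm10, from GENCODE M21. Mir206 lies at chromosome 1, 20679010 to 20679082, and Mir133b at 20682769 to 20682887, both on the plus strand and 3686 nt apart. Both overlap exons of the long non-coding RNA gene Gm28653 in GENCODE, and RefSeq places both in Lincmd1, a long non-coding RNA known from mouse myoblasts as a sponge of miR-133. Mir1a-1 lies at chromosome 2, 180389048 to 180389124, and Mir133a-2 at 180398379 to 180398482, both on the plus strand and 9254 nt apart, inside the RefSeq long non-coding RNA gene Mir1a-1hg. The remaining pair, Mir1a-2 and Mir133a-1, lies on the minus strand of chromosome 18, 2504 nt apart. It lies inside Mir133a-1hg and within introns of Mib1, a ubiquitin ligase of Notch signalling that runs on the opposite strand. Mir1b overlaps Mir1a-2 there on the plus strand. Mir1a-2 has no row of its own, and its reads were taken from the opposite strand of the row of Mir1b.

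Replicate 1 held 5052766 reads and 2323450 sense counts on miRNA genes, and replicate 2 held 7441784 reads and 3487183 sense counts. Reads that aligned to several places made up 36.6% of replicate 1 and 37.1% of replicate 2, and the files give them as a total, not by gene. The myosin-hosted miRNAs Mir208a, Mir208b and Mir499, which mark heart muscle, held 9.01% and 8.89% of sense counts. Of the other marker lists, in percent of sense counts for replicate 1 and replicate 2, Mir126a of endothelium held 10.8% and 10.6%, smooth muscle (Mir143 and Mir145a) 9.83% and 10.2%, red cells (Mir451a and Mir144) 0.0627% and 0.0542%, white cells (Mir223, Mir150 and Mir155) 0.0536% and 0.0498%, and Mir122 of liver 0.00538% and 0.00473%. No marker of these lists was at 0. In whole hearts, fewer cells of a type and less RNA per cell cannot be told apart. Intervals below are exact Clopper-Pearson 95% intervals and cover counting error only.

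All 6 genes were counted at very low levels in both hearts. Together they had 115 counts in replicate 1 and 125 in replicate 2, which is 0.00495% and 0.00358% of sense counts. Mir206 held 53.0% of the members' counts in replicate 1 and 46.4% in replicate 2. Each of the 6 genes reached 2 CPM in both libraries, as 327 of 1973 genes did, although the 95% intervals of Mir1b, Mir133a-2 and Mir133b extended below 2 CPM.

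Mir206 had 61 counts in replicate 1 (26.3 CPM, interval 20.1 to 33.7) and 58 in replicate 2 (16.6 CPM, 12.6 to 21.5), a mean of 21.4 ± 6.80 CPM (SD, n = 2). In both libraries its interval lay wholly above those of the other 5 genes. These counts leave out reads aligned to several places. Unlike Mir206, the other 5 genes share stretches of 20 nt or more with family members. Whether miR-206 exceeded miR-1 or miR-133 in the heart cannot be told from these counts. Among the reads that were counted, those on the Mir1a-2 strand exceeded Mir206, 1.61-fold in replicate 1 and 2.62-fold in replicate 2. By sense counts Mir206 ranked 216 of 1973 genes in replicate 1 and 241 in replicate 2. Mir206 is the member known from skeletal rather than heart muscle, and no second miRNA restricted to skeletal muscle was in the lists to set beside it.

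Mir133a-1 had 20 and 25 counts in replicates 1 and 2, a mean of 7.89 ± 1.02 CPM (SD, n = 2). Mir1a-1 had 17 and 19 counts, a mean of 6.38 ± 1.32 CPM. These genes are the most counted sense members of the miR-133 and miR-1 families, and their intervals overlapped in both libraries (5.26 to 13.3 and 4.26 to 11.7 CPM in replicate 1). The ratio of Mir133a-1 over Mir1a-1 was 1.18 (interval 0.585 to 2.39) in replicate 1 and, for replicate 2, 1.32 (0.696 to 2.53). No order between them was detectable at these counts.

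Mir1b had 7 and 9 sense counts, a mean of 2.80 ± 0.305 CPM (SD, n = 2). Mir133a-2 had 5 and 7 counts, and Mir133b had the same, a mean of 2.08 ± 0.102 CPM. The order among these 3 genes could not be resolved, since Mir1b over Mir133b was 1.40 (interval 0.382 to 5.59) in replicate 1 and 1.29 (0.426 to 4.06) in replicate 2. Mir1a-1 over Mir1b was 2.43 (0.957 to 6.93) and 2.11 (0.910 to 5.30), which also includes equal levels. On counts of both strands, where the row of Mir1b holds the Mir1a-2 reads, this order turned, with a mean log2 ratio of -2.85. The plot of CPM by gene shows the members by sense counts, with Mir206 above the other members and the Mir1a-2 strand above Mir206.

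**Figure D1:**
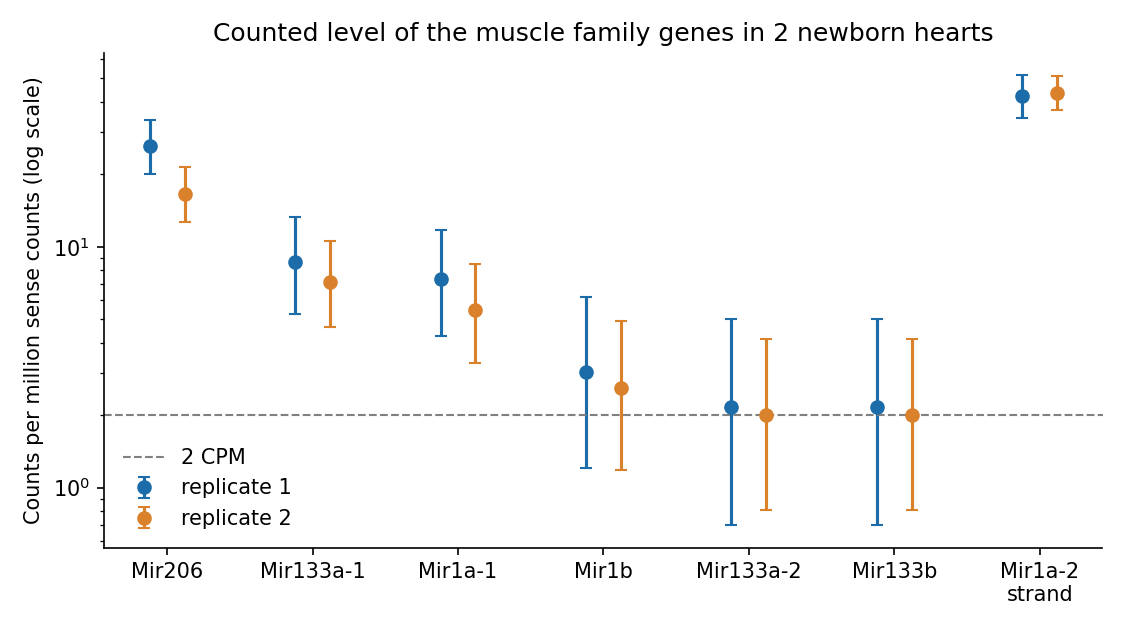
CPM of the sense total (log axis) of the 6 genes and of the reads on the Mir1a-2 strand, in replicate 1 and replicate 2; points are single libraries, bars are exact 95% intervals and the dashed line is 2 CPM. Mir206 had 26.3 and 16.6 CPM, above the other 5 genes, and the Mir1a-2 strand had 42.2 and 43.6.

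The order changed once the strand of Mir1a-2 was read. The row of Mir1b held 98 reads on its opposite strand in replicate 1 and 152 in replicate 2, which scale to 42.2 and 43.6 CPM of the sense total (mean 42.9 ± 0.997, SD, n = 2). These reads were 93.3% of that row's counts on both strands in replicate 1 (interval 86.7% to 97.3%) and 94.4% in replicate 2 (89.7% to 97.4%). They exceeded the sense counts of Mir1b 15.4-fold and those of Mir1a-1 6.79-fold (log2 ratio 2.76 ± 0.334, SD over 2 pups). They also exceeded Mir206, 1.61-fold in replicate 1 (interval 1.16 to 2.25) and 2.62-fold in replicate 2 (1.92 to 3.61).

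The other 5 rows had 0 opposite strand counts in both libraries. Read as up to 3 counts, this allows a share on the opposite strand of up to 4.92% in replicate 1 and 5.17% in replicate 2 for Mir206. For Mir133a-2, with few reads, it allows up to 60.0% and 42.9%. Across the table, 37 of 1973 rows had any opposite strand count, and 13 rows had more opposite than sense counts in both libraries. The row of Mir1b was 1 of those 13, with 0.0595% of all opposite strand counts in replicate 1 and 0.0610% in replicate 2.

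**Figure D2:**
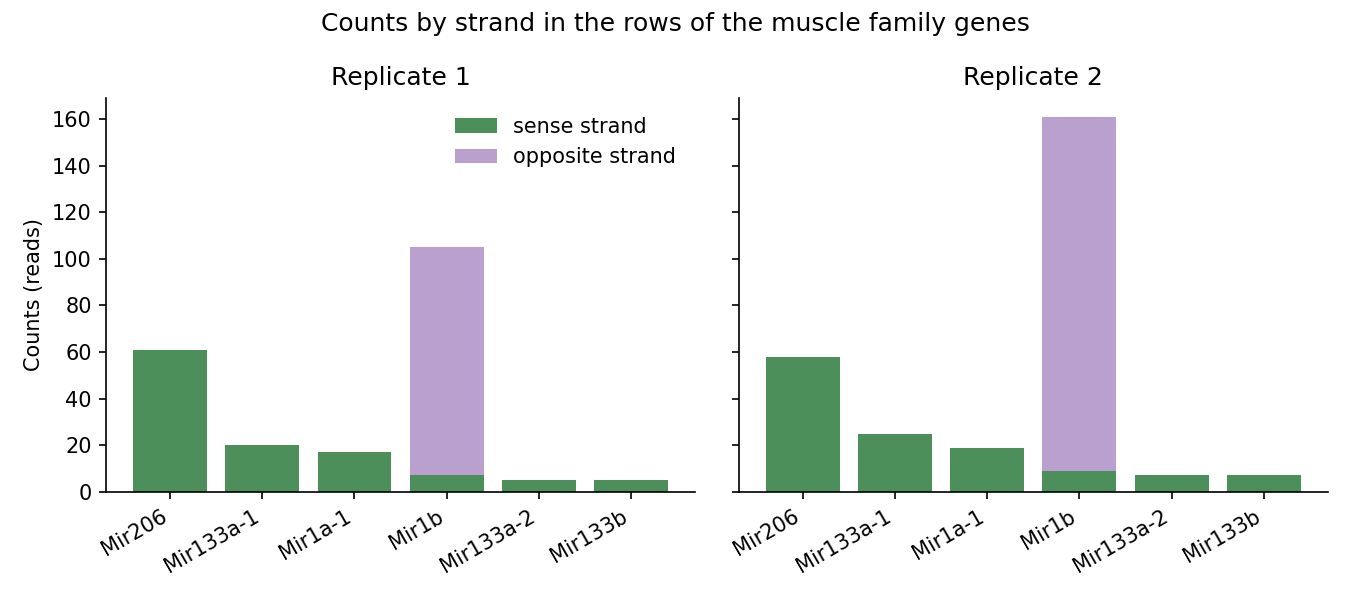
Counts of reads in the rows of the 6 genes, split into the sense strand (green) and the opposite strand (purple), 1 panel per library. The row of Mir1b had 7 sense and 98 opposite reads in replicate 1 and 9 and 152 in replicate 2, while the other rows had no opposite reads.

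In each of the 3 genomic pairs, the miR-1 or miR-206 gene was counted above its miR-133 partner in both hearts. Reads aligned to several places are in none of these counts, so the ratios are of counts and not of miRNA levels. Mir206 over Mir133b had a log2 ratio of 3.33 ± 0.395 (SD over 2 pups), or 10.1-fold, with intervals of 4.95 to 38.9 for the ratio in replicate 1 and 3.78 to 21.5 in replicate 2. On chromosome 2, Mir1a-1 over Mir133a-2 had a log2 ratio of 1.60 ± 0.230, or 3.04-fold, with intervals of 1.20 to 11.8 for the ratio in replicate 1 and 1.09 to 7.64 in replicate 2. The Mir1a-2 strand over Mir133a-1 had a log2 ratio of 2.45 ± 0.220, or 5.46-fold, with intervals of 3.01 to 8.37 and 3.97 to 9.69. The 6 intervals, 1 per pair and library, all lay above 1. No p is given for these ratios, since an exact sign flip over 2 pups cannot fall below 0.5.

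By family name, the sense counts of miR-1 (Mir1a-1 and Mir1b) came to 24 in replicate 1 and 28 in replicate 2, and those of miR-133 (Mir133a-1, Mir133a-2 and Mir133b) to 30 and 39. The sense reads of Mir1b lie on the strand opposite to Mir1a-2, and Mir1a-1 alone had 17 and 19. The family sums stood at 9.18 ± 1.63 and 12.0 ± 1.22 CPM (SD, n = 2), and their intervals overlapped in both libraries. With the Mir1a-2 strand added, miR-1 reached 122 and 180 reads, or 52.1 ± 0.630 CPM of the sense total, and its interval then lay above that of miR-133 in both. These sums leave out reads aligned to several places, and the Mir133a copies share 31 nt and the Mir1a copies 28 nt. The order of the families in the heart therefore cannot be read from them. Within miR-133, Mir133a-1 had more counts than Mir133a-2, from the other copy of the pair, at 20 and 25 against 5 and 7. The log2 ratio was 1.92 ± 0.116, with a wide interval of 1.46 to 13.6 for the ratio in replicate 1. Reads within the shared 31 nt have no single place, so which copy gave more miRNA cannot be told. In counts, Mir133b lay below the summed Mir133a genes, 5 and 7 against 25 and 32, at a log2 ratio of -2.26 ± 0.0914. The same limit holds there, since Mir133b shares 21 nt with each Mir133a gene.

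Set against the myosin-hosted miRNAs, the counts of the 6 genes were lower by several orders of magnitude. Reads aligned to several places are in neither count, so this is a ratio of counts and not of miRNA levels. The log2 ratio of the 6 members over Mir208a, Mir208b and Mir499 was -11.05 ± 0.316 (SD over 2 pups): the members had 115 and 125 counts, and the myosin-hosted genes had 209367 and 310130. With the reads of the Mir1a-2 strand added, the log2 ratio was -10.03 ± 0.133. Mir206, the highest member in sense counts, stood at a log2 ratio of -9.48 ± 0.331 over Mir208a, which lies in the alpha-myosin heavy chain gene. Mir486, another muscle miRNA that is also made in red cells, had 181 and 230 counts, more than the sense counts of the 6 members together in each library, but fewer than the 213 and 277 counts of the members with the Mir1a-2 strand added.

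The members took ranks between 216 and 332 in replicate 1 and between 241 and 329 in replicate 2, among 526 and 571 genes with any count. The 3 other genes closest to Mir206 in level, by Euclidean distance in log2(CPM + 1) over the 2 libraries, were Mir7689 (52 and 60 counts, distance 0.226), Mir326 (51 and 57, 0.249) and Mir670 (56 and 76, 0.389). For Mir1a-1 they were Mir201 (18 and 20 counts, 0.0961), Mir6240 (18 and 18, 0.0980) and Mir7688 (16 and 21, 0.145). Over 2 libraries such closeness reflects level alone.

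**Figure D3:**
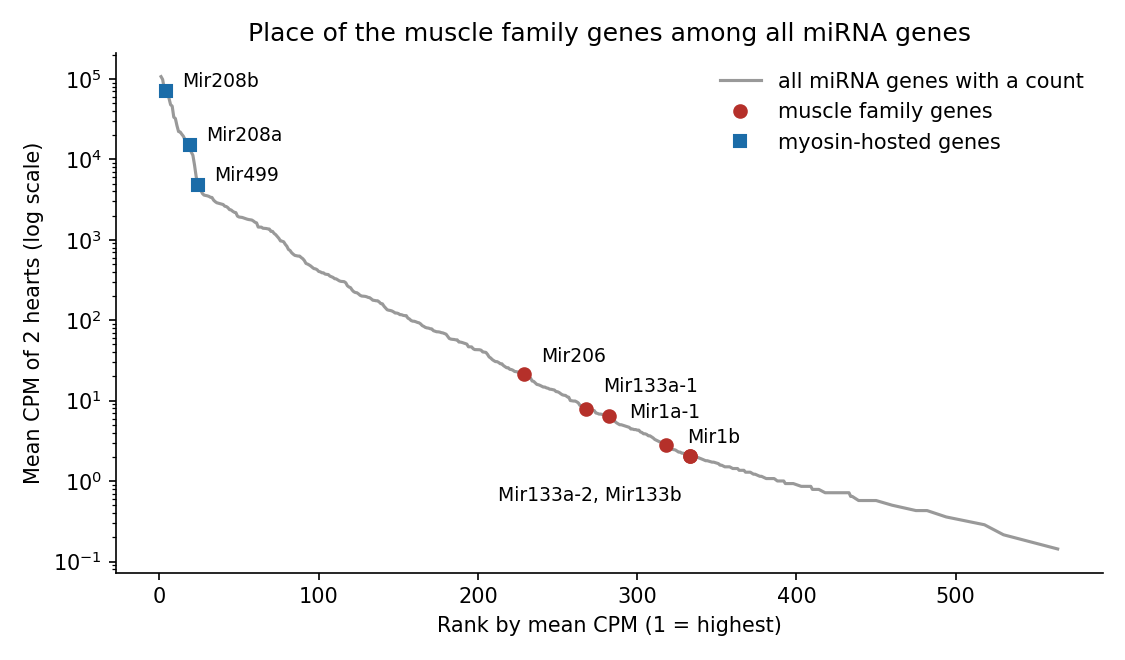
Mean CPM of both hearts (log axis) against rank for all miRNA genes with a count (grey line), with the 6 muscle family genes as red circles and the myosin-hosted genes as blue squares. Mir206 had a mean rank of 229 and Mir133a-2 and Mir133b shared rank 333, while Mir208b, Mir208a and Mir499 lay near the top.

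The low counts stand beside a large pool of reads that the files assign to no gene. Replicate 1 held 1850176 reads aligned to several places and replicate 2 held 2757266, which is 16088 and 22058 such reads for each sense count on the 6 members. For the myosin-hosted genes the same figure was 8.84 and 8.89, and for all miRNA genes 0.796 and 0.791. Each figure divides the same library total by the counts of a set, so the difference between sets restates their counts. It does not tie the reads aligned to several places to any set. How many of those reads came from miR-1 or miR-133 was not tested, since the files do not resolve them.

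The precursors differ in how much sequence they share with other miRNA genes. A precursor was read in windows of 20 nt on both strands, and a window counted as shared when it also occurred in an annotated miRNA precursor at another place. Mir206 shared 0 of 54 windows. Mir133b shared 2 of 100, Mir1b 9 of 103, Mir1a-1 9 of 58, Mir133a-2 17 of 85 and Mir133a-1 17 of 49, in each case with family members alone. The Mir1a-2 precursor shared 9 of 53, all with Mir1a-1.

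The longest stretch common to 2 members was 31 nt between Mir133a-1 and Mir133a-2, and 28 nt between Mir1a-1 and Mir1a-2, both longer than the 22 nt of a typical mature strand such as miR-206-3p. Mir133b had 21 nt in common with each Mir133a gene, and with windows of 22 nt it shared 0 of 98. Mir1b had 13 nt in common with Mir1a-1 in the same direction and 28 nt on the opposite strand, where Mir1a-2 lies. Mir206 had at most 13 nt in common with any other member. Apart from Mir206, every member and the Mir1a-2 strand must be read as uncertain, because a read within a shared stretch has no single place. The rest of the genome was not compared.

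Over the 1894 gene rows with a position, 965 genes shared no window, and 262 of them (27.2%) had a mean of 2 CPM or more. Of the 671 genes that shared some windows 75 (11.2%) did so, and of the 258 that shared every window 1 (0.388%) did so. Mir206 belongs to the first class and the other 5 members to the second, whose genes together held 7.75% of sense counts, against 92.2% in the first. Whether shared sequence sets the level of any member was not tested.

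**Figure D4:**
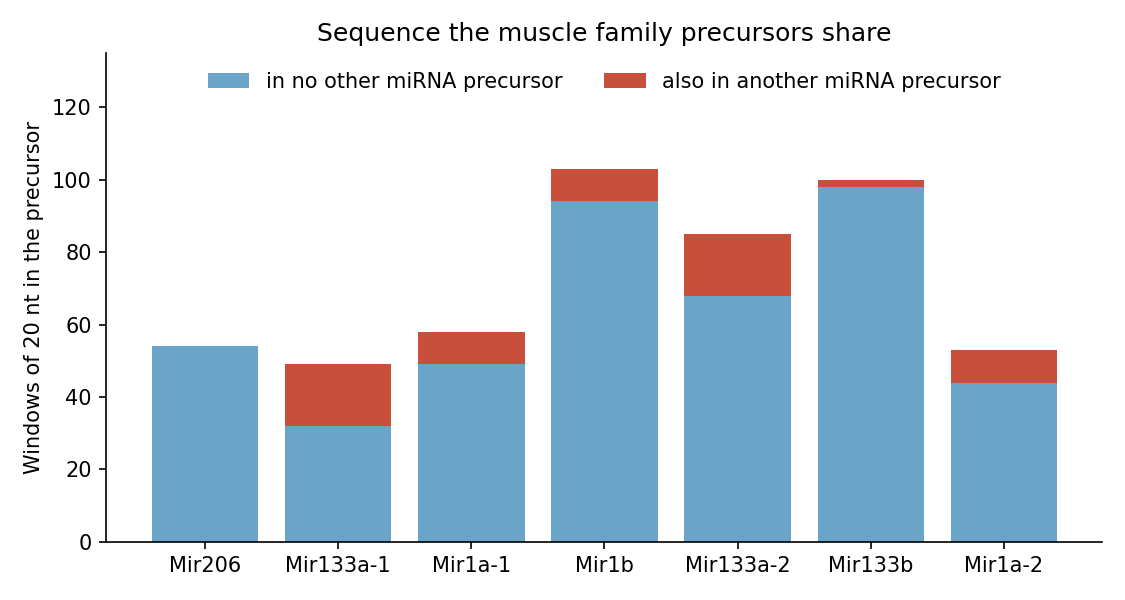
Number of 20-nt windows in each precursor that occur in no other annotated miRNA precursor (blue) and that also occur in one (red). Mir206 had no shared window, and Mir133a-1 had the largest shared part, 17 of 49.

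Between the 2 pups, Mir206 alone of the 6 members passed the test, and it did so narrowly. Its TMM-scaled counts were 1.60-fold higher in replicate 1 than in replicate 2 (exact interval 1.10 to 2.33, adjusted p = 0.0422, exact two-sided binomial test with Benjamini-Hochberg adjustment over 348 genes). The test compares these 2 libraries at counting error only, and not conditions. Of the 348 genes tested, 27.6% were called, so 1 of 6 members is not above the background. The call was lost in 2 of 6 alternative settings, with adjusted p = 0.0511 under scaling by total counts and 0.0738 without a filter on low counts (exact binomial test), and the range over the alternatives was 0.0318 to 0.0738.

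The same member was also the only one of the 6 past 1.5-fold, against 16.4% of all genes tested. The remaining ratios of replicate 1 over replicate 2 ran from 1.08 for Mir133a-2 and Mir133b to 1.36 for Mir1a-1, and their intervals all included 1. These intervals were wide: 0.271 to 3.97 for Mir133b and 0.664 to 2.76 for Mir1a-1. The Mir1a-2 strand, with more reads, had a ratio of 0.979 (interval 0.752 to 1.27). The median log2 ratio of the 6 members, on the log2(CPM + 1) scale, was 0.20, beside -0.04 over all genes tested.

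Other markers also differed between these libraries, in both directions. By the same exact binomial test, TMM-scaled counts in replicate 1 over replicate 2 were 1.16-fold for Mir208a (adjusted p = 2.31e-94) and 1.45-fold for Mir144 of red cells (adjusted p = 2.79e-07), the direction of Mir206. Mir208b, at 1.002-fold, and Mir499, at 0.990-fold, did not pass. Neither did Mir451a, the other listed red cell gene, at 1.08-fold, nor Mir486, at 1.20-fold. Mir126a of endothelium, at 1.04-fold, and Mir143 of smooth muscle, at 0.973-fold, passed as well, while Mir145a, at 0.980-fold, did not. All 8 listed epithelial genes (Mir200a, Mir200b, Mir200c, Mir141, Mir429, Mir203, Mir205 and Mir375) were lower in replicate 1, with none at 0 in either library. They summed to 371.9 CPM in the first library and 820.1 CPM in the second. Of these genes, Mir203 (0.874-fold, adjusted p = 0.129) and Mir200a (0.631-fold, adjusted p = 0.140) did not pass the exact binomial test, and the others did. The part of such differences in the value of Mir206 was not tested.

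**Figure D5:**
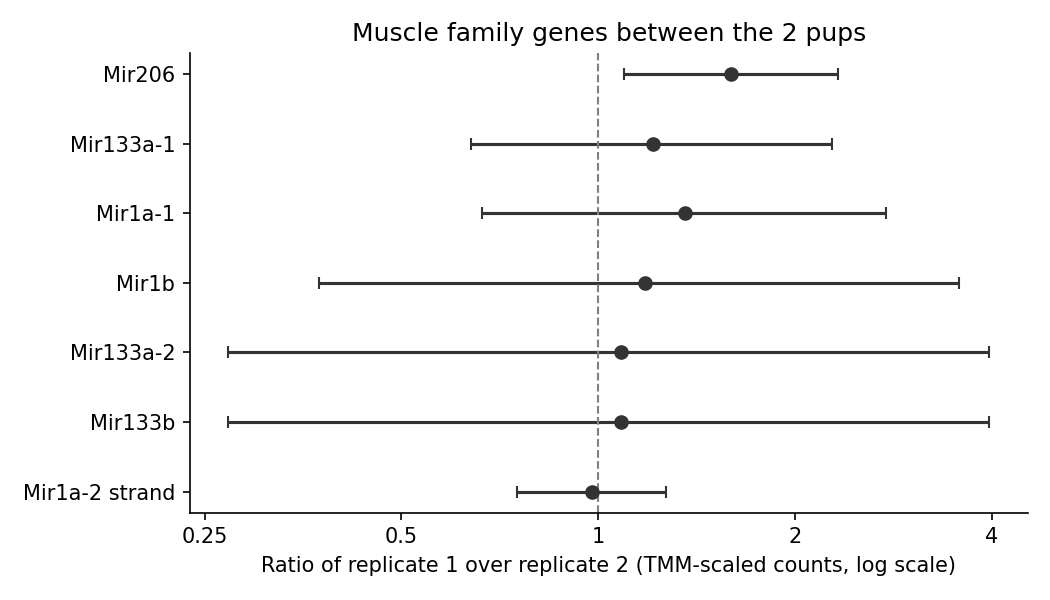
Ratio of replicate 1 over replicate 2 in TMM-scaled counts (log axis) for the 6 genes and the Mir1a-2 strand, with exact 95% intervals; the dashed line is equality. The interval of Mir206, 1.10 to 2.33, is the only one that does not include 1.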

How the data were processed

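The authors deposited, per library, raw whole-number counts for each miRNA gene, in columns for the sense strand, its opposite and their sum. Reads were placed on mm10, per the labels; the aligner, counter and their settings are not given in the sources used here. The 4 summary rows (for replicate 1 and replicate 2, unmapped 11.5% and 10.5% of reads, aligned to several places 36.6% and 37.1%, on no feature 5.93% and 5.62%, ambiguous 0) entered neither library sizes nor tests. Of 1973 identifiers, 1894 matched GENCODE M21, and the 79 others had 0 sense counts. A count of 0 allows up to 3 counts, or 1.29 CPM in replicate 1 and 0.860 in replicate 2.

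The pups were compared over all genes with 10 or more sense counts in both libraries together. The test was an exact two-sided binomial test given TMM library sizes (edgeR 4.0.16), with Benjamini-Hochberg adjustment at 0.05. It was tried on simulated data that held counting error only, which cannot show how it behaves under differences between pups or preparations. edgeR's quasi-likelihood test cannot be run with 1 library per pup. Size factors of DESeq2 1.42.0 were an alternative. Other values came from Python 3.11.15 with scipy 1.17.1. Members, marker lists and the rule for named genes (all members, the listed markers and the 3 nearest genes in level to Mir206 and Mir1a-1) were chosen with earlier results of these data known. Alternatives covered denominators, strands, scaling, filters, pseudocounts and each replicate left out.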

Additional observations from a re-analysis of the deposited data

How the results depend on the processing

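Mir206 kept the highest mean CPM of the 6 members except on counts of both strands, where the row of Mir1b, which then holds the Mir1a-2 reads, had 42.6 CPM and Mir206 20.02. Of 8 log2 ratios between members that were rerun, 1 changed sign, that of Mir1a-1 over Mir1b, which was -2.85 on counts of both strands. The share of sense counts held by the 6 members was 0.00427%; it became 0.00198% over all reads, 0.00799% on counts of both strands and 0.00856% with the opposite strand of the row of Mir1b added, and 0.00358% to 0.00495% with 1 replicate left out. The log2 ratio of the 6 members over the myosin-hosted miRNAs was -10.03 on counts of both strands, which hold the Mir1a-2 reads, and -11.28 to -10.83 with 1 replicate left out. The reads aligned to several places per count on the members were 9320 with the Mir1a-2 strand added and 16088 to 22058 with 1 replicate left out. The number of members called between the pups, 1, was 0 under scaling by total counts and 0 without a filter, which tests more genes; the called genes in all numbered 86 to 104 under the alternatives, against 96. Matches of mature strands were sought in annotated precursors, since no genome was given, and windows of 18 and 22 nt were added after seeing the data. Opposite strand counts were given as counts and shares side by side. No paired analysis was possible because there was 1 group. The 5 lower members had at most 25 counts in a library, which leaves their intervals wide.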
